A study of Homo sapiens with 12 samples.

Results

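Doxorubicin-resistant SK-N-SH cells that had been given vorinostat (SAHA) during selection (DoxR-v) were compared with parental SK-N-SH cells that had been given vorinostat alone (WT-v), so both groups had met the same histone deacetylase inhibitor and differed in the doxorubicin selection. The comparison used the 6 arrays labelled as these groups, of 12 arrays in the series, and covered 12085 named genes, each read from its brightest probe among the 21609 of 47323 probes detected on at least 1 array. SK-N-SH is a human neuroblastoma line in which cells of neuronal (N-type) and substrate-adherent (S-type) form occur together. DoxR-v was selected by stepwise increases of doxorubicin over 6 to 12 months, with vorinostat given intermittently at each logarithmic increase, at the concentration that inhibited growth by 25 percent. The cells counted as resistant once they had survived 5 passages at about 2 log units above the IC50 of the starting cells. WT-v received vorinostat in parallel and no doxorubicin. The remaining 6 arrays were DoxR, the line selected with doxorubicin and no vorinostat, and WT, the untreated parental line. Each group was 1 line with 3 arrays, and the labels did not state that the 3 RNA samples came from separate cultures, so the p-values measure the spread between these samples, which may be technical. A difference between DoxR-v and WT-v may therefore belong to the selected line as well as to the drug, and the design cannot tell these apart. How long before RNA extraction the last vorinostat was given is not stated in the labels or methods.

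Doxorubicin enters DNA and traps topoisomerase II on it, which breaks the DNA. Cells survive it by pumping the drug out, chiefly through P-glycoprotein, the product of ABCB1, by reducing it with carbonyl reductases, by buffering its radicals or by blunting cell death. Vorinostat blocks the zinc-dependent histone deacetylases, which leaves histones and other proteins more acetylated and shifts the transcription of many genes. Neuroblastoma derives from the sympathoadrenal lineage, whose cells make catecholamines and neuropeptides and store both in dense-core vesicles.

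Levels are given below as log2 of the background-corrected and quantile-normalized signal, on which 1 unit is a doubling, and a probe was detected on an array when its detection p-value was below 0.01. A gene was called at a Benjamini-Hochberg adjusted p below 0.1, from limma over all probes tested, together with a fold change above 1.5. Many counts over gene lists were smaller in the same fit without background correction or with the authors' own normalized values, and for the lists where this changes the picture most those counts are given beside the first. Between 14969 and 17220 probes were detected per array. Arrays of DoxR-v correlated with each other at 0.988 to 0.992 and arrays of WT-v at 0.987 to 0.992, against 0.955 to 0.966 between the groups. All 13 neuroblastoma markers measured (PHOX2A, CHGA and others) were detected on every array of both groups, with a summed linear level of 61093 to 72529 in DoxR-v and 64618 to 69450 in WT-v. Of 9 mesenchymal markers, VIM, SNAI2 and TWIST1 were detected on all arrays of both groups, CD44 on all of DoxR-v and none of WT-v, and COL3A1 on none of DoxR-v and all of WT-v. The 9 together summed to 5003 to 6531 in DoxR-v and 6057 to 6824 in WT-v. Glial markers (4) summed to 107 to 133 in DoxR-v and 81 to 93 in WT-v, and blood cell markers (7) to 183 to 214 in DoxR-v and 183 to 208 in WT-v. Whether a lower level in DoxR-v reflects fewer cells of one form or less RNA per cell cannot be told apart in bulk RNA.

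In DoxR-v relative to WT-v, 1438 genes were called higher (11.9% of those tested) and 1492 lower (12.3%), from 2362 probes called higher and 2451 called lower. Counts over the gene lists below are to be read against these shares. The median difference over all genes was -0.03 on the log2 scale with an SD of 0.63. Changes above 4-fold numbered 102 among genes that rose and 55 among genes that fell. The rises were led by a cell-adhesion receptor, a G-protein subunit, a neurofilament and secreted neuropeptides. The falls were led by a cancer/testis antigen, a Wnt transcription factor, neurotransmitter receptors and spliceosomal small nuclear RNAs.

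CD44, the receptor for hyaluronan, had levels of 11.04, 10.69 and 10.52 in DoxR-v and 4.37, 4.31 and 4.46 in WT-v. It was detected on no WT-v array, so only a bound could be given, and CD44 was at least 46.2-fold higher in DoxR-v (adjusted p = 1.45e-11). Such bounds set the mean of the brighter group against the mean, over the dimmer group's arrays, of the lowest level among detected probes or the probe's own level where that was higher. CD44 averaged 10.39 in DoxR and 7.27 in WT, so WT-v was the one group in which it was not detected. GNG11, a gamma subunit of heterotrimeric G proteins, had levels of 11.65, 11.31 and 11.34 in DoxR-v against 5.06, 5.18 and 5.36 in WT-v, a difference of 6.23 (SE 0.19, adjusted p = 2.74e-10) or 75.0-fold. The groups lay far apart, and GNG11 was detected on only 1 of the 3 WT-v arrays. NEFH, the heavy neurofilament subunit of large axons, stood at 11.17, 11.22 and 10.87 in DoxR-v and 5.71, 5.40 and 5.45 in WT-v, 47.4-fold higher (adjusted p = 1.45e-10).

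YBX3, a cold shock domain protein that binds DNA and mRNA, had levels of 10.34, 10.62 and 9.54 in DoxR-v and 4.42, 4.34 and 4.32 in WT-v (at least 30.9-fold higher, adjusted p = 8.28e-10). It was detected on all DoxR-v arrays and on none of the 9 others. SST, which encodes the inhibitory peptide somatostatin, showed the same distribution, with 10.08, 9.20 and 10.58 in DoxR-v against 4.49, 4.34 and 4.48 in WT-v (at least 26.6-fold higher, adjusted p = 7.27e-09), and averages of 4.59 in DoxR and 4.51 in WT, both below detection. Both genes were thus detected in DoxR-v only among these 4 groups, and their 3 DoxR-v arrays spread over more than 1 log2 unit, with 1 array below the other 2 in each case. The other rises among the 14 largest included the secreted peptides NMU (24.5-fold, adjusted p = 1.04e-09, detected on 2 of the 3 WT-v arrays), PROK2 (at least 15.4-fold) and CALCB (at least 11.9-fold), which encode neuromedin U, prokineticin 2 and the beta form of calcitonin gene-related peptide. They also included CNTNAP2, a neurexin-like protein of axons, at 17.7-fold, TUBA4A, an alpha-tubulin, at least 10.4-fold higher, SCG5, a chaperone of prohormone convertase 2, at 14.6-fold, and CA10, a secreted carbonic anhydrase relative, at least 9.37-fold higher. TMTC1 (at least 19.7-fold) was called on 1 of its 2 probes, and CPED1 (at least 11.1-fold) on all 3.

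**Figure D1:**
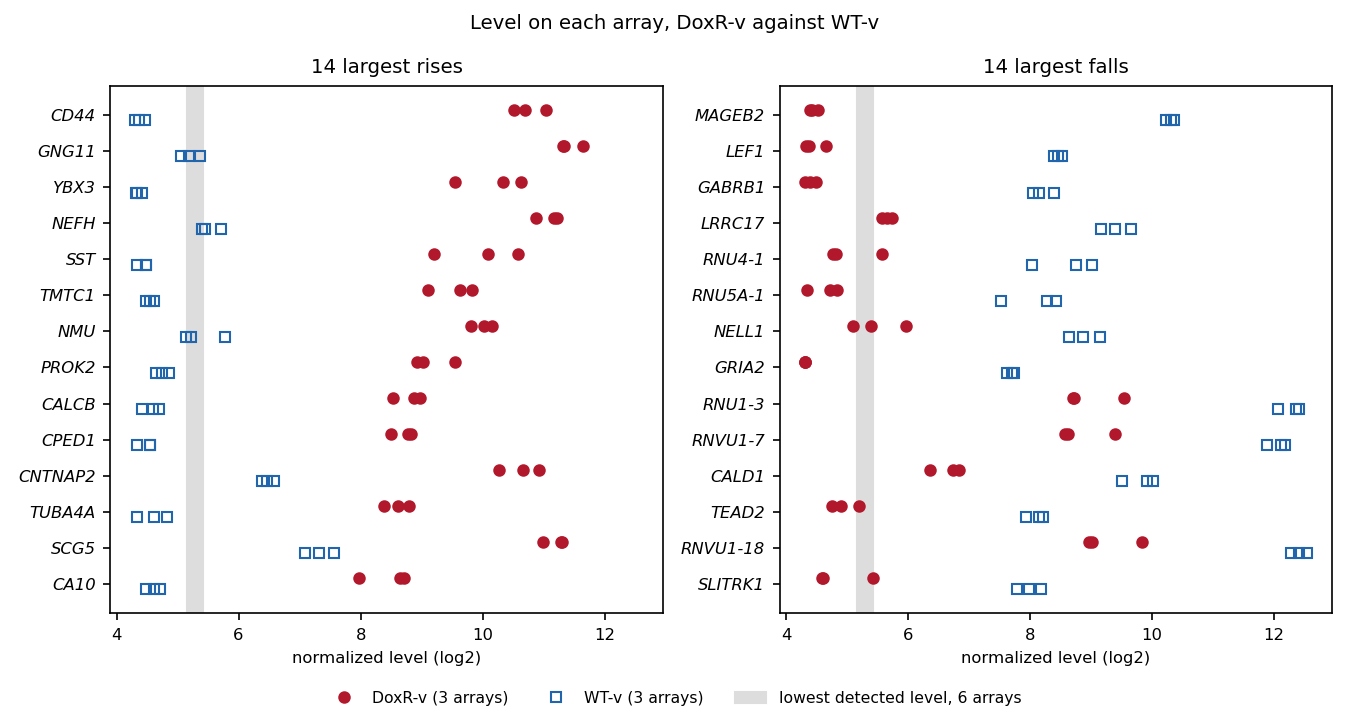
Normalized log2 level on each array for the 14 genes with the largest rises (left) and the 14 with the largest falls (right) in DoxR-v relative to WT-v. Each point is 1 array, 3 per group, and the grey band spans the lowest level among detected probes on the 6 arrays. The groups do not overlap for any gene shown, as the choice of genes required, and 9 of the 14 rises, CD44 among them, lie below detection on all WT-v arrays.

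MAGEB2, a cancer/testis antigen of the X chromosome that is normally kept silent outside the germ line, had levels of 4.40, 4.42 and 4.52 in DoxR-v and 10.31, 10.36 and 10.23 in WT-v, at least 32.0-fold lower in DoxR-v (adjusted p = 1.45e-11). It averaged 4.54 in DoxR and 4.56 in WT, below detection on every array of both, so WT-v was the only group with a detected level. LEF1, a transcription factor that carries the Wnt signal on DNA, had levels of 4.38, 4.66 and 4.33 in DoxR-v and 8.46, 8.40 and 8.52 in WT-v (at least 8.93-fold lower, adjusted p = 6.06e-08). GABRB1, a subunit of the GABA-A receptor, stood at 4.40, 4.49 and 4.32 in DoxR-v and 8.14, 8.05 and 8.40 in WT-v (at least 7.45-fold lower, adjusted p = 2.47e-09). All 3 genes were detected on every WT-v array and on no DoxR-v array.

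GRIA2, the AMPA receptor subunit that limits calcium entry, was at 4.31, 4.31 and 4.32 in DoxR-v against 7.63, 7.73 and 7.71 in WT-v (at least 5.26-fold lower, adjusted p = 9.22e-09). CALD1, the actin and myosin binding protein caldesmon, was at 6.84, 6.73 and 6.36 in DoxR-v against 10.01, 9.92 and 9.50 in WT-v, 8.96-fold lower (adjusted p = 3.41e-08), with 2 of its 3 probes called lower and none higher. LRRC17, a secreted leucine-rich repeat protein, was at 5.57, 5.73 and 5.65 in DoxR-v and 9.39, 9.66 and 9.16 in WT-v, 13.5-fold lower (adjusted p = 4.69e-09). Each of these genes stayed detected on all arrays of WT-v, and in DoxR-v CALD1 and LRRC17 fell without disappearing. TEAD2, which reads the Hippo signal on DNA, was at least 6.97-fold lower. NELL1, a secreted protein with thrombospondin-like domains, differed by -3.39 and was detected on 2 of the 3 DoxR-v arrays. SLITRK1, a synaptic adhesion protein, was at 4.60, 5.43 and 4.59 in DoxR-v and 8.18, 7.79 and 7.98 in WT-v, and it was detected on only 1 DoxR-v array, so that its difference of -3.11 rests partly on levels below detection. The falls also held 5 spliceosomal small nuclear RNAs, RNU4-1, RNU5A-1, RNU1-3, RNVU1-7 and RNVU1-18, of which RNU4-1 was detected on 1 DoxR-v array and RNU5A-1 on none. RNU1-3, for example, was at 8.70, 8.72 and 9.54 in DoxR-v and 12.36, 12.41 and 12.07 in WT-v. It averaged 9.43 in DoxR and 9.33 in WT. All 5 had their highest average in WT-v, and none of them was called between DoxR and WT. These RNAs come from near-identical multicopy genes and lack the poly(A) tail on which bead-array labelling usually rests, so which copies were read is uncertain.

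Some genes were detected on all 3 arrays of one group and on none of the other. Of the 12085 genes tested there were 152 such genes in DoxR-v, of which 143 were called higher, and 186 in WT-v, of which 156 were called lower. The calls come from the same arrays as the choice, so they are nearly fixed by it and are no further evidence. On all 6 arrays 8972 genes were detected. At a detection p-value of 0.05 in place of 0.01 the counts were 125 in DoxR-v and 153 in WT-v. Of the 152 genes seen in DoxR-v alone of this pair, 39 were detected on no WT array and no DoxR array, YBX3 and SST among them, while 41 were detected on all WT arrays. Detection in DoxR is a separate count, with 56 of the 152 detected on all DoxR arrays and 64 on none. Of the 186 genes seen in WT-v alone of the pair, 32 were detected on no WT and no DoxR array, MAGEB2 among them, and 49 were detected on all WT arrays.

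The genes that the study tabulated in relation to drug resistance were chosen with these samples in view, so their directions are not independent evidence. ABCB1, the P-glycoprotein gene, had levels of 11.20, 11.24 and 10.90 in DoxR-v and 10.41, 10.34 and 10.47 in WT-v, a difference of 0.70 (SE 0.15, adjusted p = 0.00348) or 1.63-fold. The 2 groups did not overlap, and both of its probes were called higher. ABCB1 averaged 12.15 in DoxR and 10.06 in WT, and the interaction, the difference between DoxR-v and WT-v minus that between DoxR and WT, was -1.39 (limma, adjusted p = 2.71e-04). ABCC3, which exports organic anions and conjugates, showed the largest change of the 9 genes measured from the efflux transporter list. It stood at 8.34, 8.76 and 8.90 in DoxR-v against 6.63, 6.67 and 6.05 in WT-v, 4.64-fold higher (adjusted p = 1.16e-05), while its averages were 6.13 in DoxR and 8.16 in WT. ABCB6, a porphyrin transporter, rose 1.93-fold, and ABCC4, which exports cyclic nucleotides, 1.57-fold (adjusted p = 0.00508), a call that was lost without WT-v replicate 3 (difference 0.57). ABCC5, another exporter of cyclic nucleotides, fell 2.75-fold, ABCC9, the regulatory subunit of a potassium channel, 2.06-fold (difference -0.52 and no call when its 2 probes were averaged), and ABCC10 1.52-fold (difference -0.52 and no call without WT-v replicate 3). Of the 9 genes of this list, 4 were called higher (44.4%, against 11.9% of all genes) and 3 lower (33.3%, against 12.3%), with a median difference of 0.17. ABCC9 is counted among the 3 although it is a channel subunit. The counts were 3 higher and 2 lower without background correction and 3 and 1 with the authors' normalized values. The calls of ABCC4 and ABCC10 were lost under both of these settings, and that of ABCC9 with the authors' values.

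PON2, an intracellular lactonase that limits oxidative stress, was at 10.53, 10.40 and 10.56 in DoxR-v and 8.12, 8.25 and 7.79 in WT-v, 5.45-fold higher (adjusted p = 4.12e-08). BDNF, the brain-derived neurotrophic factor, was at 8.59, 8.64 and 8.43 in DoxR-v and 5.80, 6.14 and 5.36 in WT-v, 6.92-fold higher (adjusted p = 1.74e-07) on 1 of its 3 probes. In both genes every DoxR-v array lay more than 2 units above every WT-v array. SIRT1, a sirtuin that vorinostat does not block, rose 1.75-fold (adjusted p = 0.00150), a call lost with the authors' normalized values (0.50). GSTP1, the pi-class glutathione transferase, fell 2.01-fold (11.46, 11.92 and 11.93 in DoxR-v, 12.62, 12.87 and 12.85 in WT-v). BCL2, an inhibitor of apoptosis, differed by 0.27 (95% confidence interval -0.01 to 0.55, adjusted p = 0.141) and was not called.

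EPAS1, which encodes the hypoxia-inducible factor HIF-2 alpha, had levels of 8.80, 9.63 and 8.63 in DoxR-v and 7.98, 8.18 and 8.31 in WT-v, a difference of 0.86 (SE 0.30, adjusted p = 0.0461). All DoxR-v arrays lay above all WT-v arrays, yet replicate 2 of DoxR-v stood well above the other 2, and the call was lost without it (0.56, adjusted p = 0.194) and without WT-v replicate 1 (0.78, adjusted p = 0.136). HIF1A, its better-known relative, differed by -0.31 (95% confidence interval -0.74 to 0.12, adjusted p = 0.278), with overlapping groups. Among 36 hypoxia-inducible factors and target genes 9 were called higher and 9 lower (25% each way), with a median of -0.08 (8 and 4 with the authors' normalized values). PFKFB3, which drives glycolysis through fructose 2,6-bisphosphate, was at 9.66, 9.67 and 9.43 in DoxR-v and 6.64, 6.69 and 6.76 in WT-v, 7.40-fold higher (adjusted p = 2.69e-07), and ANGPTL4 and ENO2 rose by 1.71 and 1.26. ARNT2, a dimer partner of these factors, fell by 1.79, and HK2, a hexokinase, fell by 1.03.

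Genes of neuropeptides, granins and prohormone processing were either higher in DoxR-v or not called. Of 22 measured 11 were called higher (50%, against 11.9% of all genes) and 0 lower, and their median difference was 0.63 (0.49 with undetected genes at their bounds). Besides SST, NMU, PROK2 and SCG5, they included NPY, neuropeptide Y, at 13.53, 13.41 and 13.49 in DoxR-v against 11.05, 11.47 and 10.99 in WT-v (4.96-fold, adjusted p = 3.30e-06). CRH, the corticotropin-releasing hormone, was at 9.87, 9.84 and 9.21 in DoxR-v and 7.72, 8.13 and 8.0 in WT-v (3.22-fold, adjusted p = 1.37e-05). No DoxR-v array overlapped a WT-v array for either peptide. Between DoxR and WT the same list held 5 genes called higher and 6 lower, with a median of -0.24.

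Of 13 genes of catecholamine synthesis, storage and breakdown, 5 were called higher (38.5%, against 11.9% of all genes) and 0 lower, with a median of 0.50. The count was 3 higher without background correction and 2 with the authors' normalized values. SLC18A2, the transporter that loads monoamines into vesicles, was at 6.64, 7.35 and 5.89 in DoxR-v and below detection in WT-v at 4.39, 4.29 and 4.25 (at least 2.65-fold higher, adjusted p = 4.61e-05). DBH, which turns dopamine into noradrenaline, was at 13, 13.07 and 12.38 in DoxR-v and 11.80, 12.04 and 12.16 in WT-v (1.76-fold higher, adjusted p = 0.00932). QDPR, which regenerates the tetrahydrobiopterin cofactor, rose 1.68-fold. GCH1, which makes that cofactor, rose 1.57-fold, a call lost without DoxR-v replicate 1 (0.57) or when its 3 probes were averaged (0.40), and PNMT, which makes adrenaline, was at least 1.13-fold higher but detected on only 2 DoxR-v arrays. TH, the rate-limiting enzyme of the pathway, stood at 13.18, 13.13 and 12.92 in DoxR-v and 13.11, 12.99 and 13.23 in WT-v, overlapping groups with a difference of -0.03 (95% confidence interval -0.36 to 0.30, adjusted p = 0.915). TH averaged 7.73 in WT and 4.53, below detection, in DoxR. Both groups given vorinostat thus carried TH at levels more than 5 units above the WT average. The limma interaction was 3.17 (SE 0.22, adjusted p = 1.94e-07). It rests on the difference of -3.20 between DoxR and WT, and its size depends on the offset because TH was below detection in DoxR. DBH averaged 8.64 in DoxR and 12.59 in WT.

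Of 22 genes of cholesterol synthesis and sterol regulation measured, 11 were called lower (50%, against 12.3% of all genes) and 1 higher, with a median of -0.53, and the other 10 were not called. HMGCS1, which makes the HMG-CoA that feeds the pathway, was at 9.72, 9.57 and 9.73 in DoxR-v and 11.38, 11.41 and 11.24 in WT-v (3.19-fold lower, adjusted p = 5.41e-07). DHCR7, which catalyses the last step to cholesterol, was at 7.47, 7.38 and 7.37 in DoxR-v and 9.47, 8.87 and 9.58 in WT-v (3.73-fold lower, adjusted p = 3.99e-06). The 3 arrays of DoxR-v were nearly equal for both genes, and every one lay more than 1 unit below every WT-v array. MSMO1, a sterol methyl oxidase, was at 8.69, 8.44 and 8.75 in DoxR-v and 10.23, 10.55 and 10.11 in WT-v (3.19-fold lower), and NSDHL, a dehydrogenase that takes part in removing the same methyl groups, was at 8.21, 8.0 and 8.06 in DoxR-v and 9.35, 9.45 and 9.40 in WT-v (2.47-fold lower). INSIG1, the sterol-responsive anchor of the pathway's regulator in the endoplasmic reticulum, fell by 1.44, and SQLE, squalene epoxidase, fell by 1.03. MVD, the mevalonate diphosphate decarboxylase, fell by 1.37, a call lost with the authors' normalized values (-0.58). ACAT2 fell by 1.65, on 1 of its 2 probes. CYP51A1, the lanosterol demethylase, was the one member that rose, by 1.06. Between DoxR and WT the list held 3 genes called higher and 4 lower, with a median of -0.30, and HMGCS1, DHCR7, INSIG1 and MVD were not called there.

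The promoters of the lower cholesterol genes shared a short motif. RefSeq promoter windows (GRCh38.p14, from 250 bases before to 50 after a start site) were held for 9 of the 11 lower genes, in 12 windows, and 10 of these 12 windows (83.3%) held CCAAT on either strand (read as ATTGG on the other), the letters to which the factor NF-Y binds. The letters were in 8 of 13 windows (61.5%) of the other members of the list, in 5020 of 14173 windows (35.4%) of all genes tested and in 12155 of 35116 windows (34.6%) of the table. The sterol element written as TCACNCCAC, on either strand, was in 0 of the 12 windows and in 396 of the 35116 (1.13%). The motifs and the 3 windows shown were chosen after the values were seen, and a match is a description of letters only. Copy number did not set the lower genes apart. Among them MVK, not printed, held 5 matches, INSIG1 and LSS held 1 each, and a window each of HMGCS1 and DHCR7 held 0. EBP and FDPS, which were not called, held 3 each. MSMO1 (chr4:165327419-165327718, plus strand, 4 matches), NSDHL (chrX:152830813-152831112, plus strand, 5 matches, of which 1 pair overlaps) and MVD (chr16:88663042-88663341, minus strand, 3 matches) are printed because they held several copies each, from the 5′ to the 3′ end of the gene's strand with the matches in capitals.
MSMO1: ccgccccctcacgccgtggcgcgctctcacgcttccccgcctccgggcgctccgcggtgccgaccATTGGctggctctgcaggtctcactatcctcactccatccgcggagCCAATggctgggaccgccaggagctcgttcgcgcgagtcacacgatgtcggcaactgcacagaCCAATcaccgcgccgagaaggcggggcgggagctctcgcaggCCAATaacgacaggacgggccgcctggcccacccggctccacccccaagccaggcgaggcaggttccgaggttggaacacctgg
NSDHL: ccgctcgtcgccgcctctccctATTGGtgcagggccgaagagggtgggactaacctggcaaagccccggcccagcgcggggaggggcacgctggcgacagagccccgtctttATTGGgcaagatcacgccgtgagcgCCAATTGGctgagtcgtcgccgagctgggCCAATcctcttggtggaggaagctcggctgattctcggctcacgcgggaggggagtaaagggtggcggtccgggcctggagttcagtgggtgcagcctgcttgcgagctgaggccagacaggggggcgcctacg
MVD: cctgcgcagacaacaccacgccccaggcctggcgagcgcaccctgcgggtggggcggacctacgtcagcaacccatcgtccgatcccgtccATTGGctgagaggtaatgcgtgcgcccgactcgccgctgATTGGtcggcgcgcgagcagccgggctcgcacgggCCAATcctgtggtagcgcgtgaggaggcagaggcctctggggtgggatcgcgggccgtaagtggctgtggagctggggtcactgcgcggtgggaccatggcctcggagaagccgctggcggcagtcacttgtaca
In all 3 windows the matches lay upstream of the start site, and DoxR-v differed from WT-v by -1.67 for MSMO1, -1.31 for NSDHL and -1.37 for MVD on the log2 scale.

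Fatty acid oxidation breaks acyl chains down to acetyl-CoA in mitochondria and peroxisomes. Of its 26 genes measured 11 were called higher (42.3%) and 3 lower (11.5%), with a median of 0.49, and 12 were not called. The counts were 8 higher and 2 lower without background correction and 6 and 2 (median 0.23) with the authors' normalized values. Between DoxR and WT 1 gene was called higher and 4 lower, with a median of -0.07. ECI2, an enoyl-CoA isomerase for unsaturated chains, was at 10.61, 10.62 and 10.55 in DoxR-v and 8.87, 9.22 and 8.65 in WT-v (3.20-fold higher, adjusted p = 6.78e-06), with averages of 4.67, below detection, in DoxR and 7.85 in WT. ECHS1, the short-chain enoyl-CoA hydratase, was at 10.44, 10.34 and 10.42 in DoxR-v and 9.19, 9.63 and 9.36 in WT-v (2.01-fold higher, adjusted p = 1.43e-04). The groups were separate for both genes. SLC25A20, the mitochondrial acylcarnitine carrier, rose 2.06-fold, CPT2, a mitochondrial carnitine palmitoyltransferase, 1.96-fold, and the thiolase ACAA1 1.73-fold, the calls of SLC25A20 and ACAA1 being lost with the authors' normalized values (0.53 and 0.46). CROT, the peroxisomal octanoyltransferase, rose 1.99-fold, a call lost without background correction (0.58) and with the authors' normalized values (0.35). ECI1 and HSD17B4 fell by 0.74 and 0.63, and the call of HSD17B4 was lost without WT-v replicate 1 (-0.56) and under median scaling (-0.57). CPT1B, another carnitine palmitoyltransferase, was detected on no DoxR-v array and was at least 1.26-fold lower, a call that was lost with an offset of 50 (-0.43) and under several other settings. Of 68 respiratory chain subunits 4 were called higher and 1 lower, with a median of 0.19.

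Neuronal cytoskeleton and synapse genes numbered 9 higher (31.0%) and 3 lower of 29 measured, with a median of 0.36. TAGLN3, a neuronal member of the transgelin family, was at 11.08, 10.64 and 11.06 in DoxR-v and 8.38, 8.68 and 8.43 in WT-v (5.39-fold higher, adjusted p = 7.68e-07). SYT4, a synaptotagmin of vesicle release, was at 11.26, 11.07 and 11.05 in DoxR-v and 9.53, 9.57 and 9.39 in WT-v (3.10-fold, adjusted p = 1.72e-06), and MAPT, which encodes tau, rose 3.22-fold. The SNARE protein SNAP25 rose 2.28-fold. The groups did not overlap for these genes. MAP1B, a microtubule-associated protein of growing axons, fell 2.38-fold, GAP43 of growth cones 1.71-fold, and STMN2, which destabilizes microtubules, 1.62-fold, a call lost without DoxR-v replicate 2 (-0.58). Tubulins and microtubule proteins counted 8 higher and 4 lower of 35, with TUBA4A and TUBB4A (3.75-fold) among the rises and the linker protein CLIP3 (2.53-fold) among the falls.

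Of 36 actin cytoskeleton genes 5 were called higher (13.9%) and 8 lower (22.2%), with a median of -0.10. ACTA2, smooth-muscle actin, was at 6.36, 6.28 and 6.64 in DoxR-v and 8.76, 9.05 and 9.02 in WT-v (5.73-fold lower, adjusted p = 5.30e-08), and TAGLN, transgelin, was at least 4.44-fold lower. Against these, ARPC1B, a subunit of the Arp2/3 complex that branches actin, rose 3.21-fold, and vinculin (VCL) 2.39-fold. The tropomyosin genes TPM2 (-0.57) and TPM4 (-0.44), the myosin heavy chain MYH9 (0.16) and the light chain MYL6 (0.13), named after their values were seen, were not called. Mesenchymal S-type markers did not move one way. Of 22 measured 4 were called higher (18.2%) and 6 lower (27.3%), and their median was -0.12 (-0.06 with bounds). CD44 and IFI16 rose, while SNAI2, a repressor of E-cadherin, was at 6.46, 6.43 and 6.32 in DoxR-v and 8.50, 8.46 and 8.40 in WT-v (4.13-fold lower, adjusted p = 1.83e-06). The matrix proteins SPARC and COL3A1 were at least 3.70-fold and 2.67-fold lower, and TWIST1 fell 2.33-fold. Among collagens, laminins and integrins 4 of 24 were called higher and 5 lower (2 and 3 without background correction, 2 and 1 with the authors' normalized values), including COL6A1 at least 5.09-fold lower and the integrin ITGA6 at least 4.34-fold higher. Cadherins and protocadherins counted 5 higher and 6 lower of 19, with PCDH19 at least 4.14-fold higher and FAT1 at least 2.94-fold lower. The cadherin counts were 5 higher and 3 lower without background correction and 4 higher and 0 lower with the authors' normalized values, where FAT1 was not called (-0.55).

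CDKN1A, which encodes the p21 inhibitor of cyclin-dependent kinases and is a classical target of both p53 and histone deacetylase inhibition, was at 9.12, 8.82 and 9.11 in DoxR-v and 5.70, 5.81 and 5.78 in WT-v (9.55-fold higher, adjusted p = 1.17e-08). It averaged 5.95 in DoxR and 10.23 in WT, so WT-v and DoxR were the low groups and DoxR-v stood between them and WT. RB1, the retinoblastoma protein that restrains entry into S phase, was at 7.25, 6.68 and 6.74 in DoxR-v and 8.58, 8.26 and 8.48 in WT-v (2.93-fold lower, adjusted p = 2.86e-04). Its relative RBL2 fell by 1.24, E2F5 by 0.93 and CDK6 by 0.78, and CDKN2B, detected on 2 WT-v arrays, rose by 1.24, a call lost without background correction (0.54) and with the authors' normalized values (0.28). Among 21 CDK inhibitors and G1 regulators 2 were called higher and 6 lower. Mitosis and spindle checkpoint genes were called lower in 8 of 35 (22.9%, and 5 of 35 either without background correction or with the authors' normalized values) and higher in 0, with a median of -0.13. PLK4, which starts centriole duplication, was at 9.37, 9.15 and 8.97 in DoxR-v and 10.40, 10.36 and 10.22 in WT-v (2.25-fold lower), and the kinetochore proteins CENPF and CENPE fell by 0.76 and 0.75. Between DoxR and WT the mitosis list counted 7 higher and 1 lower.

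DNA damage sensing and repair genes were called lower in 11 of 42 (26.2%) and higher in 4, with a median of -0.28, against 11 higher and 4 lower between DoxR and WT. The counts were 8 lower and 1 higher without background correction and 5 lower and 1 higher with the authors' normalized values. MDC1, a scaffold at double-strand breaks, was at 9.54, 9.59 and 9.40 in DoxR-v and 10.86, 10.76 and 10.81 in WT-v (2.46-fold lower, adjusted p = 2.48e-06). DNA ligase LIG1 fell 2.42-fold, the nuclease MRE11 1.82-fold and the kinase ATM, on 1 of its 2 probes, 1.68-fold. MGMT, which removes alkyl groups from guanine, ran the other way, at 9.84, 10.09 and 10.31 in DoxR-v and 8.52, 8.85 and 8.48 in WT-v (2.76-fold higher, adjusted p = 3.17e-05). Both genes separated the groups fully. Replication genes counted 1 higher (2.38%) and 5 lower (11.9%) of 42. The list of p53 and its targets counted 5 higher (20.8%) and 2 lower (8.33%) of 24 (3 and 0 under both of these settings). Among the 5 was ZMAT3 (0.71), which had 1 probe called higher and 2 called lower.

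Of 40 antioxidant and glutathione genes 10 were called higher (25%) and 2 lower (5.00%), with a median of 0.13 (7 and 2 with the authors' normalized values). GPX3, a secreted glutathione peroxidase, was at 8.49, 8.44 and 8.64 in DoxR-v and 6.09, 6.73 and 6.30 in WT-v (4.45-fold higher, adjusted p = 4.23e-07). Heme oxygenase HMOX1 rose 3.05-fold, the transferase GSTK1 2.31-fold and the quinone reductase NQO1 2.26-fold, and TXNIP, an inhibitor of thioredoxin, fell 1.81-fold. Doxorubicin targets and reductases, which share NQO1 with that list, counted 5 higher and 1 lower of 15, with a median of 0.36 (3 and 1 with the authors' normalized values). CBR1, the main carbonyl reductase of doxorubicin, was at 7.45, 7.43 and 7.50 in DoxR-v and 6.35, 6.39 and 6.53 in WT-v (2.05-fold higher, adjusted p = 2.29e-04). The aldo-keto reductase AKR1C3 rose 2.32-fold and CBR3 was at least 2.21-fold higher, while AKR1C2 fell by 1.09. With the authors' normalized values HMOX1 (0.49), CBR1 (0.40) and CBR3 (0.33) were not called. The aldo-keto reductases are close in sequence, and a probe may read more than 1 of them.

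GSDME, the gasdermin that opens membrane pores after cleavage by caspase 3, was at 10.04, 9.69 and 9.47 in DoxR-v and 6.02, 6.18 and 6.08 in WT-v (12.5-fold higher, adjusted p = 1.40e-08). The death receptor TNFRSF21 fell 3.49-fold and cytochrome c (CYCS) rose 2.15-fold. In all, 4 of 31 apoptosis regulators were called higher (12.9%, against 11.9% of all genes) and 2 lower (6.45%, against 12.3%). Interferon-stimulated genes counted 6 higher and 3 lower of 20, and their median was 0.28 (0.12 with bounds). The counts were 2 higher and 1 lower without background correction and 1 higher and 0 lower with the authors' normalized values. IFI16, a nuclear DNA sensor, was at 9.33, 8.39 and 8.51 in DoxR-v and below detection at 4.90, 5.19 and 4.83 in WT-v (at least 11.5-fold higher, adjusted p = 3.87e-08). IFI35 and IRF1, each detected on 1 WT-v array, differed by 1.16 and 1.11, and the oligoadenylate synthetases OAS1 (at least 1.69-fold) and OAS3 (2.18-fold) were lower. IFI35 (0.46), IRF1 (0.44) and OAS1 (-0.38) were not called without background correction, and these genes and OAS3 (-0.58) were not called with the authors' normalized values.

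Wnt pathway genes counted 4 higher and 7 lower of 26, with a median of -0.22 (2 and 6 without background correction, 1 and 5 with the authors' normalized values), against 9 higher and 2 lower between DoxR and WT. Beside LEF1, the secreted Wnt inhibitor SFRP1 was at 8.77, 8.40 and 8.61 in DoxR-v and 10.03, 9.72 and 9.98 in WT-v (2.49-fold lower), while TCF7L2, a relative of LEF1, was 2.64-fold and the receptor FZD9 3.14-fold higher. Notch pathway genes counted 1 higher, the target HEY1 (2.36-fold), and 6 lower of 20, but 0 lower both without background correction and with the authors' normalized values. NRARP, 1 of the 6, was detected on 1 DoxR-v array, and its difference of -0.99 was -0.44 and -0.23 there. Insulin-like growth factor genes counted 3 higher and 4 lower of 19 (1 and 3 under both of these settings). IGFBP3, the main carrier of these factors in serum, was at 7.38, 6.70 and 6.76 in DoxR-v and 9.25, 9.31 and 9.36 in WT-v (5.12-fold lower, adjusted p = 1.43e-06). IGFBP5 fell 5.56-fold and IGFBP4 4.52-fold, and IGFBP7 rose 4.55-fold. Sympathoadrenal transcription factors counted 3 higher and 7 lower of 26, with a median of -0.26 (2 and 4 with the authors' normalized values). Among them HAND2, part of the core regulatory circuit of neuroblastoma, was at 9.61, 9.79 and 9.93 in DoxR-v and 11.21, 10.75 and 11.03 in WT-v (2.33-fold lower, adjusted p = 8.92e-05), MEIS2 fell 2.73-fold and EBF1 rose 3.17-fold.

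Of 17 classical histone deacetylases, which vorinostat blocks, and sirtuins, which it does not, SIRT1 was called higher and 4 genes were called lower. The counts were 1 higher and 2 lower without background correction, and 0 higher and 2 lower with the authors' normalized values. HDAC2 was at 11.06, 10.92 and 10.87 in DoxR-v and 11.90, 11.99 and 11.93 in WT-v (1.98-fold lower, adjusted p = 1.40e-04), called on 1 of its 2 probes, and SIRT5 fell 2.09-fold. Of 15 genes often induced by histone deacetylase inhibition, 2 were called higher (13.3%, against 11.9% of all genes), CDKN1A among them. Another 4 were called lower (26.7%, against 12.3%), and the median was 0.02. LIN28B, an RNA-binding protein that blocks let-7 and a neuroblastoma driver, was at 8.96, 9.25 and 8.83 in DoxR-v and 11.16, 11.28 and 11.04 in WT-v (4.43-fold lower, adjusted p = 2.89e-07). It shares with YBX3 a cold shock domain, and of the 5 such genes measured these 2 were the ones called. Among 6 neurotrophin and GDNF family genes, the receptor RET rose 2.35-fold beside BDNF. The glutamate receptor subunit GRIN1 was at 10.44, 10.53 and 10.14 in DoxR-v and 8.15, 7.78 and 8.31 in WT-v (4.89-fold higher, adjusted p = 4.75e-07), the one rise beside the falls of GABRB1 and GRIA2 among 13 glutamate and GABA receptors. The calcium-activated potassium channel KCNMA1 rose 4.10-fold, and 6 of 30 channel genes were called higher and 4 lower (4 and 1 with the authors' normalized values).

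The remaining lists held few calls or calls in both directions. Axon guidance counted 3 higher and 8 lower of 30 (2 and 3 without background correction, 1 and 2 with the authors' normalized values), unfolded protein and amino acid responses 6 higher (the chaperone HSPA5 rose 1.66-fold) and 3 lower (the lipoprotein receptor VLDLR fell 5.61-fold) of 29, and glycolysis and pyruvate dehydrogenase 5 higher and 4 lower of 27. Polycomb and DNA methylation enzymes counted 2 higher and 4 lower of 20, the TCA cycle 2 each way of 19, heat shock chaperones 3 higher and 1 lower of 22, homeobox genes of the HOX and PITX families 2 higher and 1 lower of 21, and solute carriers 2 higher and 3 lower of 21. Cytosolic ribosomal proteins counted 3 higher and 2 lower of 67, and immediate early genes 0 higher and 1 lower of 15. MHC class I genes counted 2 higher and 0 lower of 17, metallothioneins and zinc handling 1 higher and 2 lower of 8, and neuroblastoma driver genes 0 higher and 3 lower of 22. None of the 4 blood cell genes tested was called, and ERBB3, the 1 Schwann and glial marker tested, was at least 1.46-fold higher. The call of ERBB3 was lost without background correction (0.46) and with the authors' normalized values (0.21).

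**Figure D2:**
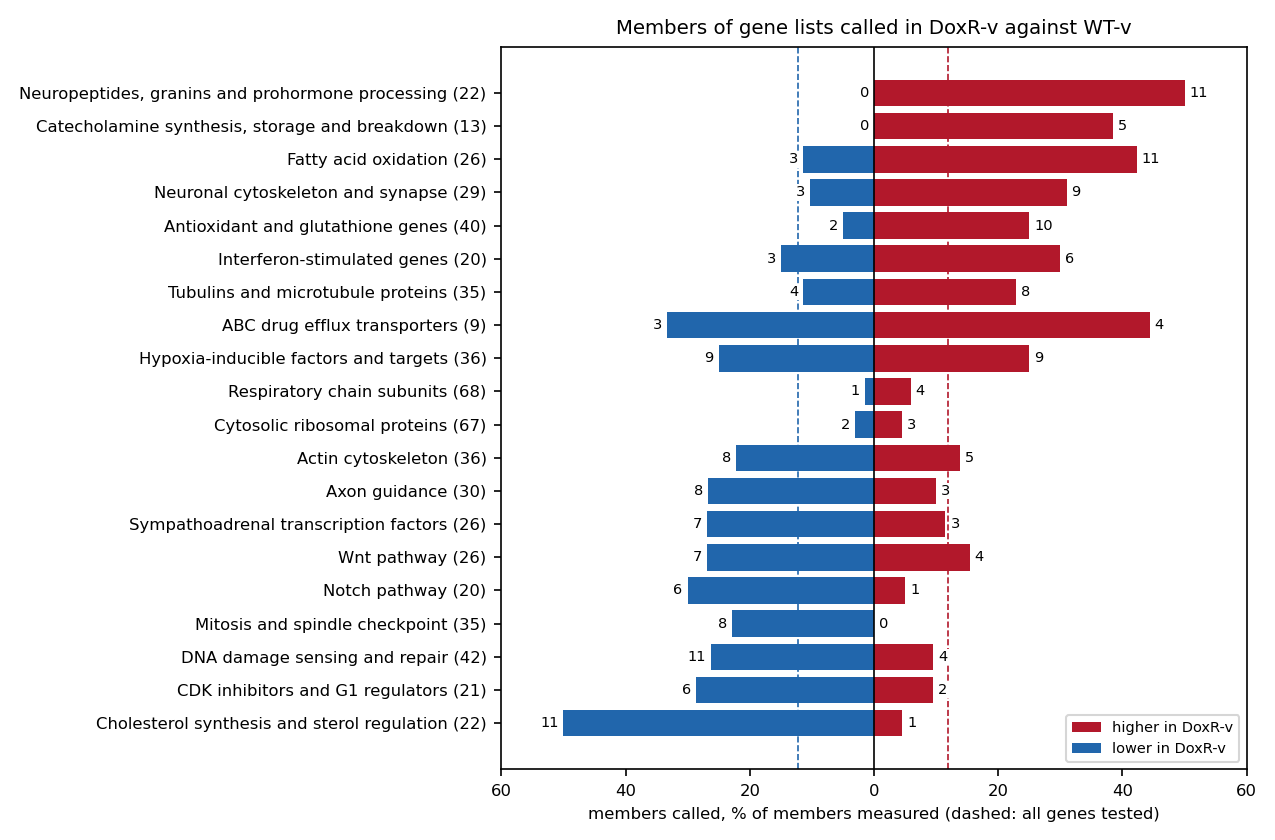
Share of measured members called higher (right, red) and lower (left, blue) in DoxR-v relative to WT-v for 20 gene lists. The number measured is in parentheses, the numbers at the bars are counts of genes, and dashed lines mark the shares over all genes, 11.9% higher and 12.3% lower. Neuropeptide genes were called higher in 11 of 22 and cholesterol genes lower in 11 of 22.

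DoxR and WT, the pair without vorinostat, shared no arrays with DoxR-v and WT-v, so the 2 differences were set side by side. Between DoxR and WT 2072 genes were called higher (17.1%) and 1931 lower (16%). Across the 6895 genes with a mean level above 7 the 2 differences correlated at a Pearson r of 0.05 and a Spearman rho of 0.03, a description over genes, which are not independent replicates. Of the 2930 genes called between DoxR-v and WT-v, 639 were called in the same direction between DoxR and WT (21.8% of the first set and 16% of the second) and 592 in the opposite direction (20.2% and 14.8%). The limma interaction called 2442 genes higher (20.2%) and 2648 lower (21.9%), among them all 592 that moved in opposite directions. For those 592 the interaction adds 2 differences already called, so this is nearly fixed by their choice and is no further evidence. Of the 2930 genes 2024 were also called in the interaction.

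A set of 445 genes moved the same way in both pairs with no call in the interaction, which does not show equal size. The genes of this set named here, apart from TUBA4A and GABRB1, were chosen after their values were seen. DUSP6, the phosphatase that switches off ERK, was at 9.03, 9.12 and 9.14 in DoxR-v and 5.95, 6.19 and 5.97 in WT-v (8.33-fold higher, adjusted p = 1.69e-08), and it averaged 9.13 in DoxR and 6.04 in WT. The 2 differences were 3.06 and 3.09, and the interaction was -0.03 (95% confidence interval -0.50 to 0.44). S100A11, a calcium-binding protein, rose by 2.15 between DoxR-v and WT-v, and it averaged 11.37 in DoxR and 9.24 in WT. PDGFRB, a receptor tyrosine kinase of mesenchymal cells, differed by -2.77 in the first pair and -3.33 in the second, and SOSTDC1, a secreted inhibitor of BMP and Wnt signals that was detected on 1 DoxR-v array, by -3.08 and -2.84. TUBA4A averaged 9.39 in DoxR and 5.78 in WT, and GABRB1 averaged 4.76 in DoxR and 8.18 in WT, each in the same order as DoxR-v and WT-v.

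Of the genes with the largest interaction, GNG11 averaged 4.63 in DoxR and 7.47 in WT, NEFH 5.89 in DoxR and 8.03 in WT, SCG5 8.37 in DoxR and 11.76 in WT, and TAGLN3 4.85 in DoxR and 10.02 in WT. All 4 were higher in DoxR-v than in WT-v and lower in DoxR than in WT. In the other direction LRRC17 averaged 12.20 in DoxR and 6.00 in WT, LEF1 9.0 in DoxR and 5.70 in WT, and SLITRK1 8.42 in DoxR and 4.62, below detection, in WT. SPRY1, an inhibitor of receptor tyrosine kinase signals, was at least 4.51-fold lower in DoxR-v than in WT-v (adjusted p = 7.15e-07) and averaged 9.46 in DoxR and 5.78 in WT. FGL2, a fibrinogen-like immune regulator, was below detection in DoxR-v, WT-v and WT and averaged 11.12 in DoxR. The resistant line that had met vorinostat was thus low for LRRC17, LEF1, SLITRK1, SPRY1 and FGL2, which were high in the resistant line that had not.

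**Figure D3:**
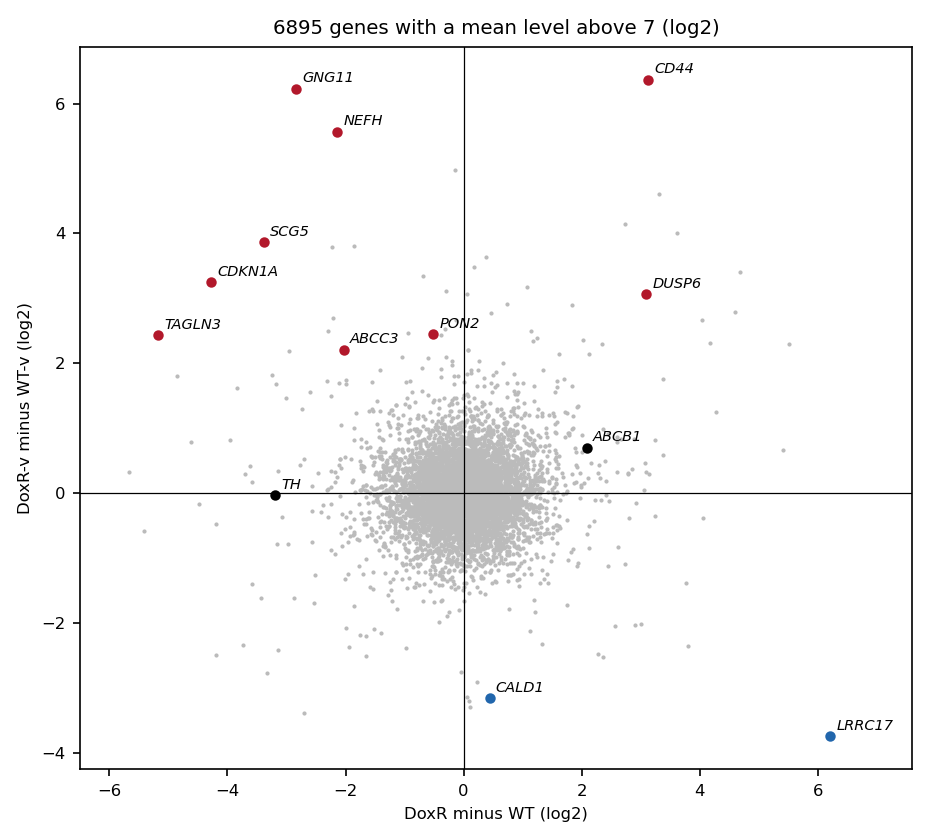
Difference of DoxR-v minus WT-v (vertical axis, log2) against DoxR minus WT (horizontal axis, log2) for 6895 genes with a mean level above 7, 1 point per gene, with genes of the text named in red where higher, blue where lower and black for ABCB1 and TH. Genes in the upper left, such as GNG11 (6.23) and TAGLN3 (2.43), were higher in DoxR-v than in WT-v and lower in DoxR than in WT, and the cloud shows no common slope (r 0.05).

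Differences between DoxR-v and WT-v also followed chromosomal position. Among genes with a mean level above 7, 34.3% of the 324 on chromosome 6 were called lower (median -0.42), 30.3% of the 340 on chromosome 16 (median -0.36) and 21.4% of the 421 on chromosome 19 (median -0.30). On chromosome 10, 35.6% of 267 were called higher (median 0.42), on chromosome 21, 28.6% of 77 (median 0.36) and on chromosome 7, 21.4% of 364 (median 0.19). Over all 6892 placed genes 12.3% were called higher and 12.4% lower. Genes were then put in the order of the RefSeq annotation (GRCh38.p14), and the median was taken over each run of 25 neighbours. These medians ran from -1.28 to 0.80, 3954 of 6340 lay within 0.2 of 0, and 294 that reached 0.5 in size were joined into 20 regions. The regions were defined from these values and carry no test. They held 833 genes (12.1%), with 260 of 853 lower calls (30.5%) and 149 of 851 higher calls (17.5%).

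**Figure D4:**
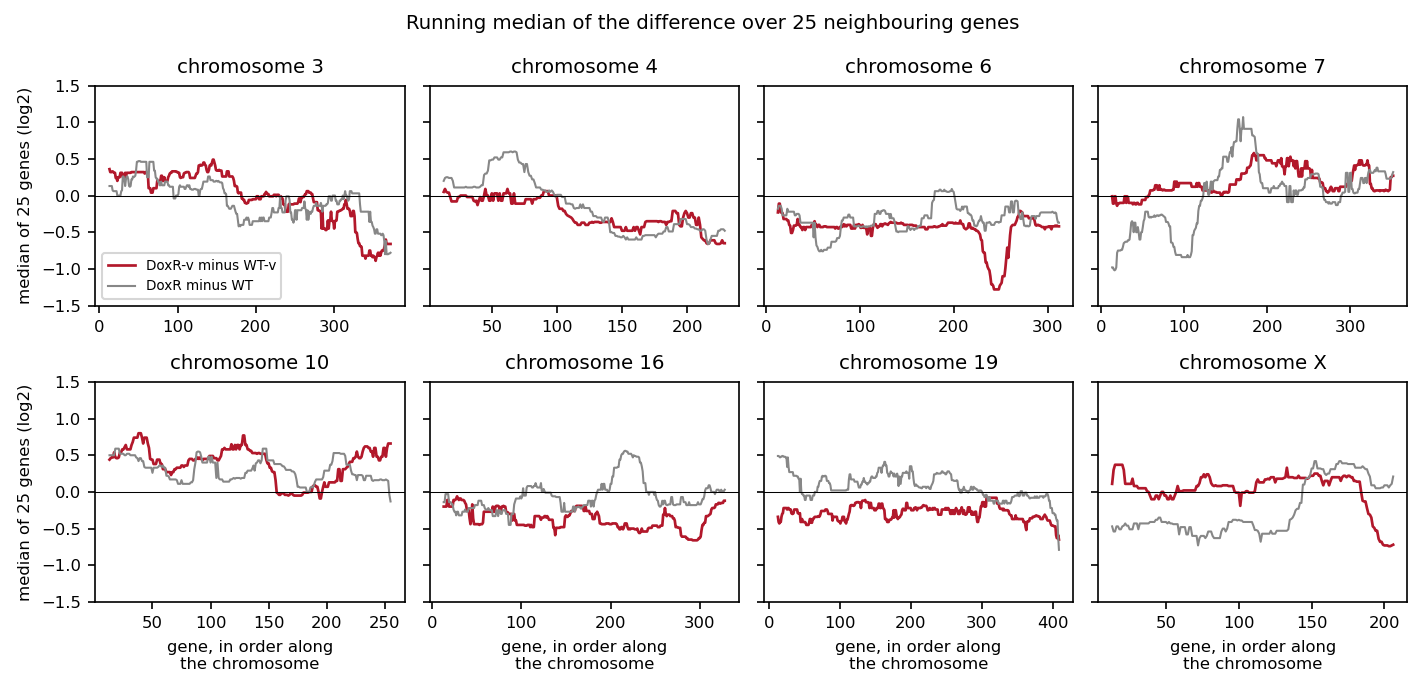
Running median over 25 neighbouring genes of the log2 difference DoxR-v minus WT-v (red) and DoxR minus WT (grey), for genes in order along 8 chromosomes. The red line falls to -1.28 on chromosome 6, while it stays above 0 over most of chromosome 10.

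The lowest run of 25 neighbours (-1.28) lay in the region from CYB5R4 to PTPRK on chromosome 6. Of its 58 genes 30 were called lower (51.7%) and 3 higher, with a median of -0.61 (-0.73 to -0.54 with any 1 array left out). Relative to the mean of the 12 arrays, the median level of the region was -0.34, -0.32 and -0.32 in DoxR-v and 0.31, 0.38 and 0.22 in WT-v, with -0.07, -0.14 and -0.12 in DoxR and 0.18, 0.15 and 0.26 in WT. It holds LIN28B and HDAC2, together with genes chosen after their values were seen. These are the transcription factor FOXO3 (2.80-fold lower), the Mediator kinase CDK19 (5.00-fold lower), the Src-family kinase FYN (3.43-fold lower on all 4 of its probes) and MARCKS, a substrate of protein kinase C. MARCKS was at 10.96, 10.91 and 10.99 in DoxR-v and 12.48, 12.56 and 12.43 in WT-v (2.90-fold lower, adjusted p = 4.15e-07).

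A region of chromosome 3 from BCHE to RPL35A, which holds ABCC5, had 40 of 70 genes called lower and 3 higher (median -0.63). On the X chromosome from RBMX to VAMP7, where NSDHL lies, 23 of 37 were called lower and 1 higher (median -0.68). There the levels were -0.50, -0.51 and -0.54 in DoxR-v and 0.08, -0.00 and 0.21 in WT-v, and DoxR (0.30, 0.32 and 0.37) lay above WT (0.19, 0.13 and 0.14). On chromosome 4 from FBXW7 to FRG1, with MSMO1 and HAND2, 21 of 43 were called lower, and on chromosome 19 from NAT14 to MZF1 16 of 29 were lower and 0 higher. In the region of chromosome 16 from NETO2 to ATP6V0D1, with RBL2, 21 of 57 were lower, and in that of chromosome 13 from KBTBD7 to TBC1D4, with RB1, 13 of 35 were.

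Regions with higher levels lay mainly on chromosome 10. From WDR37 to ITGB1, with PFKFB3 and AKR1C3, 26 of 55 were called higher and 3 lower (median 0.54), AKR1C2 being 1 of the 3. From DDX50 to CEP55, with KCNMA1 and VCL, 26 of 62 were higher and 1 lower (median 0.52), that 1 being ACTA2. From XPNPEP1 to ECHS1, with MGMT, 28 of 54 were higher and 3 lower (median 0.61), with levels of 0.26, 0.22 and 0.15 in DoxR-v and -0.31, -0.24 and -0.41 in WT-v. The region of chromosome 7 from SEMA3E to NAPEPLD holds ABCB1, GNG11, PON2, CROT, TMEM243 and ARPC1B, and 27 of its 71 genes were called higher and 4 lower, LRRC17 and CDK6 among the 4 (median 0.48). Within it, levels were 0.22, 0.29 and 0.36 in DoxR-v and -0.24, -0.21 and -0.22 in WT-v, with 0.02, 0.02 and 0.05 in DoxR. Of 15 listed genes beside ABCB1 4 were called higher and 1 lower between DoxR-v and WT-v (median 0.31). The 4 included ELAPOR2 (11.4-fold) and TMEM243 (1.83-fold), with STEAP1 at least 1.59-fold higher. The counts were 2 higher and 0 lower both without background correction and with the authors' normalized values, where STEAP1 was not called (0.54 and 0.25). With the mean of the probes they were 6 higher and 0 lower. Between DoxR and WT 11 of the 15 were called higher and 0 lower, with a median of 1.56.

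**Figure D5:**
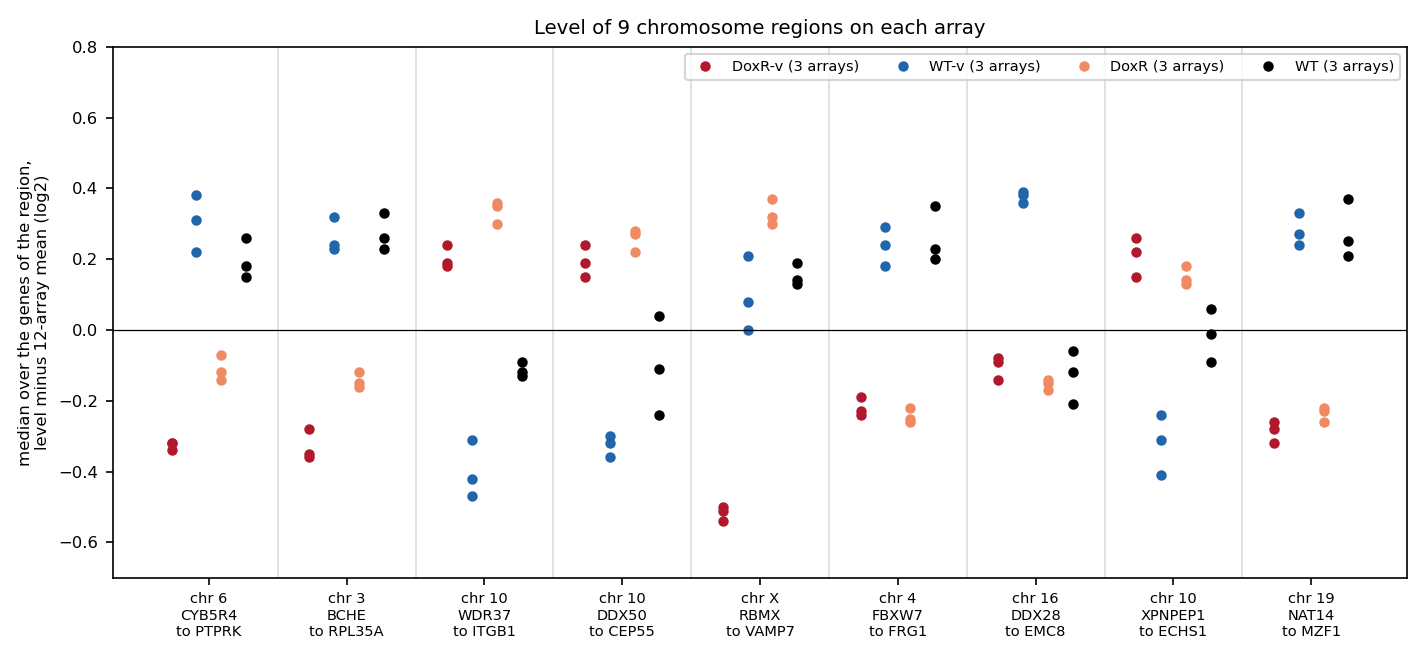
Median level of the genes of 9 regions on each of the 12 arrays, relative to the mean of the 12 arrays (log2), with 3 points per group. DoxR-v and WT-v are separate in every region shown, as the choice of regions on these values makes likely, and in the chromosome X region DoxR-v stands alone near -0.50 while DoxR lies highest.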

How the data were processed

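Gene expression was measured in 12 RNA samples of SK-N-SH cells on Illumina HT-12 v4 bead arrays. Each array's group and replicate number came from its label. For 47323 probes the authors deposited a non-normalized signal intensity, on a linear scale, with a detection p-value that sets the probe against negative control probes. Neither the labels nor the methods say whether a background had been subtracted at scanning or which slide held each array. A second deposited table held normalized intensity values with the same distribution on every array (lumi 2.13.3 and R 3.0.1 in the submitters' processing notes), and it served as an alternative.

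The main values were made from the non-normalized intensities with neqc of limma 3.58.1 (R 4.3.3), that is, a normal-exponential background from the detection p-values, an offset of 16, quantile normalization and log2. The 21609 probes with detection p under 0.01 on any of the 12 arrays were tested. One lmFit model over the 12 arrays had a mean for each group, eBayes moderated its errors, and the Benjamini-Hochberg adjustment ran over every tested probe. Calls required adjusted p under 0.1 with more than 1.5-fold change. Standard errors and confidence intervals are limma's moderated ones. The model was tested on simulated data.

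Probes were named through the platform table, updated by Entrez identifier. There were 30113 probes with 1 symbol, 8 with several and 17202 with none or not listed, while 30074 matched a current gene, and 5276 tested probes (810 of them called) stayed unnamed. A gene was read from its brightest tested probe. Of 3329 genes with several probes, 16 had probes called in opposite directions, and the report names only ZMAT3 of these. It is counted as higher among the p53 targets and in the chromosome 3 region from BCHE to RPL35A.

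Named genes were the 14 largest called rises and falls with separate groups and full detection in the higher group, the genes tabulated by the study with 7 further genes it discussed, up to 6 members of each of 48 lists by adjusted p together with any member among 3 or fewer calls, and the 5 largest interactions each way. Genes outside this rule are named as chosen after their values were seen. The members and lists were chosen with earlier results of these data known, and lists were described by counts and medians with no set test. Alternatives were median scaling, no background correction, an offset of 50, the authors' normalized values, no filter or a stricter filter, the mean of a gene's probes, the 6 arrays alone, the replicate number as a block and each array left out in turn. Settings for the regions were added after the data were seen. No pair of arrays held identical values, and the number of arrays limits the precision.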

Additional observations from a re-analysis of the deposited data

Results flagged for a closer look

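For 10 genes the difference between DoxR-v and WT-v differed from the difference between DoxR and WT by the limma interaction, the first minus the second on the log2 scale. They are the 5 largest called in each direction. The interaction was 9.07 for GNG11, 7.70 for NEFH, 7.60 for TAGLN3, 7.54 for CDKN1A and 7.25 for SCG5. It was -9.96 for LRRC17, -7.30 for LEF1, -6.92 for SLITRK1, -6.44 for FGL2 and -6.28 for SPRY1. FGL2 was not called between DoxR-v and WT-v (0.16, adjusted p = 0.481), and its interaction rests on DoxR, in which alone it was detected. Where a group was below detection the fitted interaction depends on the offset and is no bound, which touches GNG11 and TAGLN3 in DoxR, LEF1 and SPRY1 in DoxR-v, SLITRK1 in WT, and FGL2 in every group but DoxR. Each group was a single line, and whether other selections give the same interaction was not tested.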

How the results depend on the processing

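Between DoxR-v and WT-v, the number of calls moved most with the authors' normalized values, which differ in more than 1 step, and without background correction. Without background correction 1189 probes were called higher and 1044 lower, with an offset of 50 in place of 16 there were 1462 called lower, and with the authors' normalized values 736 higher and 636 lower. The interaction then counted 5078 probes without background correction and 3307 with the authors' values, and DoxR vs WT 3295 and 2072. Leaving out the correction and raising the offset shrink the fold changes of dim probes by construction, and the cause of the shift with the authors' values was not tested. Of the genes named in the report 159 were followed through the settings, and none that was called changed direction. Of the 155 called among them, 121 kept their call under every setting and 34 lost it under at least 1. Of these 34, 31 did so with the authors' values and 13 without background correction. The 31 included ARNT2 (-0.54), SLC18A2 (0.56), COL3A1 (-0.52), MAP1B (-0.38), CYCS (0.54), MRE11 (-0.49), ATM (-0.57) and TCF7L2 (0.58). GCH1 and PNMT lost their calls under both settings. The offset of 50 ended the calls of ABCC10, CPT1B, OAS1 and PNMT, and testing all probes with no filter ended those of EPAS1 (adjusted p = 0.106) and CPT1B (adjusted p = 0.163). Median scaling in place of quantile normalization gave 2654 higher and 2341 lower, which moved the share of higher calls to 53.1%, against 49.1%. With 1 array left out at a time, between 2206 and 2549 probes were higher and between 2270 and 2655 lower, with 7817 to 9021 in the interaction and 6167 to 7342 for DoxR vs WT. Of the 96 counts over gene lists 92 stayed within 1.5 times under median scaling, 85 with the mean of the probes, 62 without background correction and 46 with the authors' values. All 20 regions kept their direction under every setting run. With the replicate block 2359 probes were higher and 2447 lower, with 8225 in the interaction and 6411 for DoxR vs WT, and none of the 155 genes lost its call. The replicate numbers did not pair the samples, since deviations of same-numbered DoxR-v and WT-v arrays correlated at 0.00, -0.11 and -0.14. Probes near the background limit the folds of dim genes, and 3 arrays of 1 line per group limit what the comparison can carry beyond these lines.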
